A study of Sus scrofa domesticus with 4 samples.

Results

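The SLA class II genes encode the porcine major histocompatibility complex class II molecules. They are represented here by 28 of the 43603 probes on the array, which map through RefSeq to 7 of the 3029 genes that could be named. Every probe with 1 of the 7 gene symbols was taken, whatever its values. The 7 genes themselves were chosen with earlier results of these data known, so their contrast with all probes is a description. There were 22 probes for the classical genes (7 for SLA-DRA, 4 for SLA-DRB1, 7 for SLA-DQA1 and 4 for SLA-DQB1) and 6 for the non-classical genes (2 each for SLA-DMA, SLA-DMB and SLA-DOA). In the RefSeq gene table the 7 genes lie on 1 chromosome in the order SLA-DRA, SLA-DRB1, SLA-DQA1, SLA-DQB1, SLA-DMB, SLA-DMA and SLA-DOA. Of the other class II entries looked up, SLA-DOB and several DRB, DQB and DYB pseudogenes lie between them. So does a second protein-coding gene with the synonym SLA-DRB. Genes outside class II were not looked up there. That second DRB gene and the pseudogenes have no probe named here, so the extent to which SLA-DRB1 and SLA-DQB1 probes also bind their transcripts was not tested.

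The classical molecules are pairs of an alpha and a beta chain that carry peptides from the endosome to the cell surface and show them to CD4 T cells. The non-classical DM dimer edits the peptides bound inside the cell, and the DO dimer restrains DM. The classical and DM genes are switched on through the co-activator CIITA, strongly in professional antigen-presenting cells. After interferon gamma they are also switched on in many other cells, among them endometrial epithelium and endothelium.

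Treated explants received 10 nM orexin B, a hypothalamic peptide, for 24 h, and untreated explants were kept for the same time with no addition. Both kinds were slices of about 100 mg from the uterine horns of crossbred gilts (Large White x Polish Landrace) aged 7 to 8 months, on days 15 to 16 of gestation, when the conceptus attaches. All slices had a pre-incubation of 2 h. The comparison asks how orexin B alters the gene expression of the endometrium at that stage, and each of the 4 two-colour arrays sets treated against untreated RNA. The labels name 4 gilts and duplicate cultures but do not say which gilt is on which array. Each array was taken as a replicate, and p-values measure the spread between arrays. In whole tissue, fewer cells of a type and less RNA per cell cannot be told apart.

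By the dye labels of each array, Cy5 marked treated RNA on arrays 1 and 3, and Cy3 marked it on arrays 2 and 4. Read literally, the common labelling protocol would put treated RNA in Cy5 throughout. Array 2 stands apart: by its header it came from another slide and another scan day than arrays 1, 3 and 4. Its deposited name, however, carries the slide barcode of those arrays. The header was used. On it 36.2% of spots in the treated channel and 46.8% in the untreated channel were well above background. On arrays 1 and 3 the shares were 82.9% and 86.7% in the treated channel (Cy5) against 30.4% and 27.8% in the untreated channel, and on array 4 they were 33.8% against 82.4% (Cy5). No spot was saturated. A log2 ratio below 0 means less signal in treated than in untreated explants, with loess normalisation within each array.

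All 26 class II probes that could be tested had a fitted ratio below 0, and none passed the threshold. Of all 13783 tested probes, 46.9% had a fitted ratio below 0. The median of the class II probes was -0.36 and that of all tested probes was 0.02. No class II probe reached an adjusted p under 0.05 in limma's test, and 0% of all tested probes did. At an unadjusted p under 0.05 there were 4 class II probes, all with a lower ratio, against 1.88% of all tested probes with a lower ratio and 3.60% with a ratio of either direction. The ratio was below 0 on 4 of 4 arrays for 12 of the 26 probes, against 3.61% of all tested probes. On arrays 1 to 4 it was below 0 for 14 of 26, 26 of 26, 16 of 25 and 25 of 25 class II probes. Among all tested probes it was below 0 for 7137 of 13744, 6268 of 13734, 6776 of 13720 and 6498 of 13719. The class II medians were -0.02, -0.42, -0.30 and -0.54, against -0.03, 0.06, 0.01 and 0.02 for all tested probes. Array 1 thus showed almost no difference from all tested probes. Probes of one gene read the same transcript, so these counts hold 7 genes and not 26 independent measurements. The direction also rests on the dye labels. With treated RNA read as Cy5 on every array only 6 of the 26 probes were below 0, against 55.5% of all tested probes. By the dye labels, that reading gives the mean Cy5 over Cy3 ratio of a probe and not a treatment ratio. The authors' value table follows the dye labels, with arrays 2 and 4 turned. With each array centred on its median in place of loess, 17 of 26 were below 0 and 11.0% of all tested probes were. All 26 were then below the median of all tested probes, which had moved to 0.28.

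**Figure D1:**
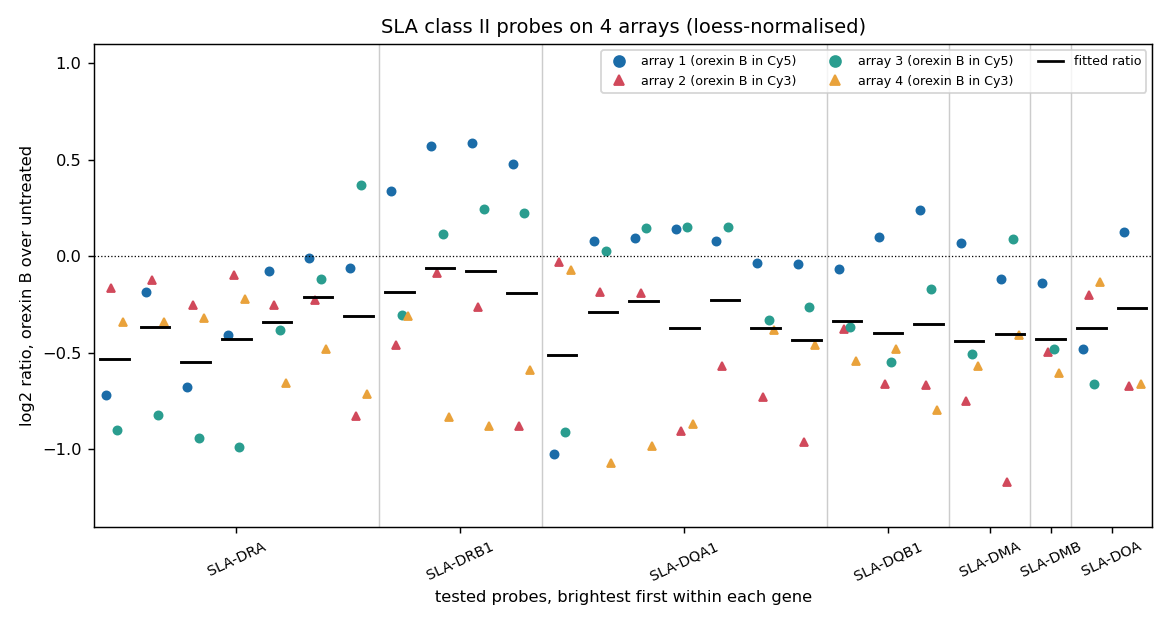
Log2 ratio of orexin B over untreated explants (y axis) for the 26 tested class II probes, grouped by gene and ordered by brightness, with circles for arrays with orexin B in Cy5, triangles for Cy3 and black bars for the fitted ratio. All 26 bars lie below 0, from -0.55 to -0.06, while on array 1 the 4 SLA-DRB1 probes lie above 0.

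SLA-DRA is the nearly invariant alpha chain that pairs with DRB in the classical DR molecule. The normalised signal of its brightest probe was 13.49, 14.57, 13.50 and 14.97 on the log2 scale in treated explants on arrays 1 to 4. In untreated explants it was 14.21, 14.74, 14.41 and 15.31. Treated signal was the lower one on every array, although the ranges of both groups overlap because signal differed between arrays. The log2 ratios were -0.72, -0.17, -0.90 and -0.34, which gave a fitted ratio of -0.53 ± 0.17 (moderated SE, n = 4; 95% interval -0.94 to -0.13), or 1.45 times lower in treated explants. Limma's unadjusted p was 0.0171 and the adjusted p was 0.999. The 7 SLA-DRA probes had fitted ratios of -0.55 to -0.21, and 6 of them were below 0 on 4 of 4 arrays.

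SLA-DQA1 encodes the polymorphic alpha chain of the DQ molecule. Its brightest probe had a signal of 12.57, 14.26, 13.15 and 14.48 in treated explants and 13.60, 14.29, 14.06 and 14.55 in untreated explants. The ratios of this probe were -1.03, -0.03, -0.91 and -0.07, so the 2 arrays with treated RNA in Cy5 gave almost the whole difference. Its fitted ratio was -0.51 ± 0.17 (95% interval -0.91 to -0.11; limma's adjusted p = 0.999), beside a dye term of -0.46. The next brightest probe showed the other pattern, with 0.08, -0.19, 0.03 and -1.07 and a dye term of 0.34. Over the 7 probes the fitted ratio ran from -0.51 to -0.23, and 3 of them were below 0 on 4 of 4 arrays. SLA-DQA1 is therefore better read by its range over probes than by 1 probe. The figures by gene, the gene order and the class means below still use its brightest probe, unless they name all or averaged probes.

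SLA-DQB1, the beta chain that partners DQA, had a signal of 13.84, 14.23, 14.07 and 14.49 in treated explants and 13.90, 14.61, 14.44 and 15.04 in untreated explants. Its ratios were -0.06, -0.38, -0.37 and -0.54, with a fitted value of -0.34 ± 0.17 (95% interval -0.75 to 0.07; limma's adjusted p = 0.999). The other 2 tested probes gave -0.40 and -0.35. The remaining SLA-DQB1 probe was above background in treated RNA on 2 arrays and in untreated RNA on 2 arrays, in Cy5 each time, and was not tested.

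SLA-DRB1, the polymorphic beta chain of DR, had the highest fitted ratio of the 7 genes with loess, by the brightest probe. That probe had a signal of 12.94, 12.62, 12.48 and 13.65 in treated explants and 12.60, 13.08, 12.78 and 13.96 in untreated explants. On array 1 the treated signal was the higher one. The ratios were 0.34, -0.46, -0.30 and -0.31, and the fitted value was -0.18 ± 0.19 (95% interval -0.63 to 0.27; limma's adjusted p = 0.999). All 4 SLA-DRB1 probes lay above 0 on array 1, at 0.34 to 0.59, and all 4 below 0 on array 4, at -0.88 to -0.31. Their fitted ratios were -0.19 to -0.06, so SLA-DRB1 was not distinguishable from no difference at this array number. No other class II gene passed the adjusted threshold either, and the intervals of SLA-DQB1, SLA-DMA and SLA-DOA also include 0.

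The non-classical genes had fitted ratios of -0.44 to -0.37. SLA-DMA, the alpha chain of the peptide editor DM, had a signal of 11.64, 12.08, 11.76 and 12.58 in treated explants and 11.57, 12.83, 12.27 and 13.15 in untreated explants. Its ratios were 0.07, -0.75, -0.50 and -0.57, lower in treated explants on 3 of 4 arrays, with a fitted value of -0.44 ± 0.19 (limma's adjusted p = 0.999). Its second probe was at -0.40.

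SLA-DMB, the beta chain of DM, was among the most even members. Its signal was 11.76, 12.12, 11.66 and 12.18 in treated explants and 11.90, 12.62, 12.14 and 12.78 in untreated explants. The ratios of -0.14, -0.50, -0.48 and -0.60 were all below 0 and gave a fitted value of -0.43 ± 0.17 (95% interval -0.84 to -0.02; limma's adjusted p = 0.999), or 1.35 times lower. The second SLA-DMB probe was above background in treated RNA on 3 arrays and in untreated RNA on 2, and was not tested.

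SLA-DOA, the alpha chain of the DM inhibitor DO, had 2 tested probes. The signal of the brightest was 9.92, 8.80, 9.26 and 10.43 in treated explants and 10.40, 9.01, 9.92 and 10.56 in untreated explants. The ratios were -0.48, -0.20, -0.66 and -0.13, with a fitted value of -0.37 ± 0.17 (95% interval -0.77 to 0.03; limma's adjusted p = 0.999). All 4 were below 0. The other SLA-DOA probe had ratios of 0.13, -0.67 and -0.66 on arrays 1, 2 and 4, above 0 on array 1. It was fitted without array 3, where its spot was an outlier, and stood at -0.27 ± 0.22. Both probes of SLA-DOB, the beta chain that pairs with DOA, were above background in 0 Cy3 channels, and were not tested.

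**Figure D2:**
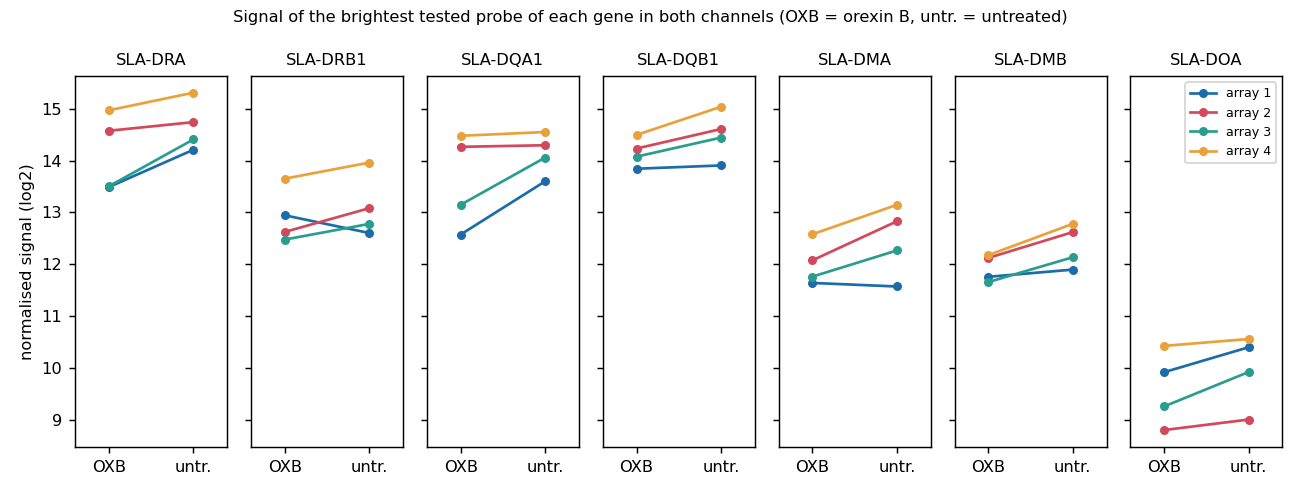
Normalised log2 signal (y axis) of the brightest tested probe of each class II gene in orexin B and untreated RNA, with a line per array. SLA-DRA, SLA-DQA1, SLA-DQB1, SLA-DMB and SLA-DOA were lower with orexin B on all 4 arrays, and SLA-DRB1 and SLA-DMA on 3 of 4. Heights are not comparable between genes.

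Classical and non-classical genes did not separate. With the brightest probe of each gene, the mean ratio of the 4 classical genes was -0.37, -0.26, -0.62 and -0.32 on arrays 1 to 4, and that of the 3 non-classical genes was -0.18, -0.48, -0.55 and -0.43. The classical minus non-classical difference was -0.18, 0.23, -0.07 and 0.12, with a mean of 0.02 ± 0.18 (SD, n = 4). It was below 0 on arrays 1 and 3, with treated RNA in Cy5, and above 0 on arrays 2 and 4, with treated RNA in Cy3. With all tested probes in place of 1 per gene the difference was 0.08, 0.23, 0.12 and -0.09 (mean 0.09 ± 0.14, SD, n = 4). In both versions the difference was smaller than the spread between arrays. Ordered by fitted ratio the genes ran SLA-DRA, SLA-DQA1, SLA-DMA, SLA-DMB, SLA-DOA, SLA-DQB1 and SLA-DRB1, and all 7 intervals overlap. With each gene's probes averaged the order changed, with SLA-DMB lowest at -0.43, SLA-DQB1 at -0.36, SLA-DQA1 at -0.35 and SLA-DRB1 highest at -0.13.

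Probes of the same gene differed in their dye term, which contrasts arrays with treated RNA in Cy5 with arrays with it in Cy3. The term can hold dye bias. It can also hold differences in response between the gilts or cultures on those arrays, or differences of slide and scan day. These parts cannot be told apart here. The dye term was above 0 for 20 of the 26 probes and below 0 for 6. Among all tested probes 44.5% had a dye term above 0. It was larger in size than the treatment ratio for 11 of 26 probes, and 64.0% of all tested probes shared that feature. Its unadjusted limma p was under 0.05 for 5 of the 26, against 14.2% of all tested probes. Of the 8 class II probes among the brightest 10% of all tested probes, 5 had a dye term below 0, against 59.7% of all such bright probes. Among the brightest 10% as a whole, 46.0% of probes had a treatment ratio below 0, with a median of 0.02. The part of probe brightness and dye in the class II ratios was not tested further.

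**Figure D3:**
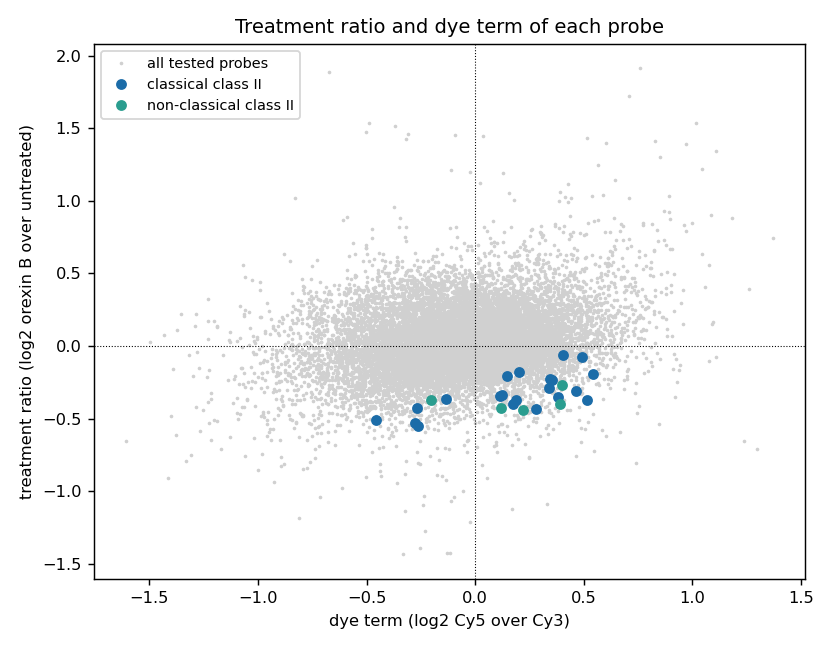
Treatment ratio (y axis, log2 orexin B over untreated) against the dye term (x axis, log2 Cy5 over Cy3) of every tested probe in grey, with classical class II probes in blue and non-classical ones in green. The class II probes lie below 0 on the y axis, while their dye terms run from -0.46 to 0.54.

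The values deposited by the authors, which start from the scanner's own background and dye correction, also gave ratios below 0 for most of the brightest probes. In the authors' deposited table SLA-DRA stood at -0.30, -0.37, -0.48 and -0.57 on arrays 1 to 4, and SLA-DQA1 at -0.38, -0.24, -0.51 and -0.40. In the authors' deposited table SLA-DRB1 stood at 0.34, -0.33, -0.16 and -0.51, so array 1 kept its ratio above 0. SLA-DQB1, at -0.21, -0.43, -0.42 and -0.72 in the authors' deposited table, was below 0 on every array, as were the brightest probes of SLA-DMA, SLA-DMB and SLA-DOA. The other SLA-DOA probe stood at 0.00, -1.13, 1.08 and -0.51 in the authors' deposited table. In the authors' deposited table, below 0 on 4 of 4 arrays were 15 of the 26 probes, against 4.57% of all tested probes. Classical minus non-classical was 0.09, 0.24, 0.20 and -0.07 in the authors' deposited table, so the non-classical genes were the lower ones on 3 of 4 arrays, by a mean of 0.11 with an SD of 0.14.

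Other genes of class II regulation and antigen handling were read from a list of 36 symbols. Of these, 20 had a named probe and 15 were tested. A fitted ratio below 0 was found for 14 of the 15, TGFB1 among them at almost 0, against 56.1% of the 1637 tested named genes. The median was -0.24 for the list and -0.02 for all named genes. Below 0 were 12 of 15 with each gene's probes averaged, 12 of 15 with the authors' value table and 10 of 15 without array 3. Of everything tested, 45.9%, 50.6% and 49.0% were below 0 under these settings, in that order. With median centring 4 of 15 were below 0, against 11.0% of all tested probes. The list's median was then 0.04, and 13 of 15 lay below the median of all tested probes. None passed the adjusted threshold and 2 had an unadjusted p under 0.05. On arrays 1 to 4 the list's median was 0.21, -0.29, -0.52 and -0.24, so array 1 did not show a lower ratio. CIITA, RFX5, RFXAP and RFXANK, the factors that act on class II promoters, had no probe named here.

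CD74, the invariant chain that holds class II molecules until peptide is loaded, had ratios of 0.21, -0.96, -0.24 and -0.12 and a fitted value of -0.28 ± 0.21. The promoter factor gene NFYB stood at -0.24 ± 0.18, and its other tested probe at -0.05. Among genes of endosomal processing, IFI30, a reductase that unfolds antigens, stood at -0.13 ± 0.22, and its other probe at 0.19. The protease genes stood at -0.22 ± 0.20 (CTSH), -0.12 ± 0.21 (CTSD) and -0.03 ± 0.23 (CTSB). The 4 CTSB probes ran from -0.22 to 0.15.

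In interferon gamma signalling, IRF1, a transcription factor that helps to induce CIITA, had ratios of -0.70, -0.27, -0.75 and -0.08. Its fitted value was -0.45 ± 0.17 (limma's adjusted p = 0.999), and its other probe stood at -0.19. The kinase gene JAK1 stood at -0.41 ± 0.19, the lowest of its 5 probes, which ran up to -0.03. The kinase gene JAK2 stood at 0.27 ± 0.21. Its probe was above background in 4 treated and 2 untreated channels, so it was tested only through the treated channel, where it was higher. The receptor gene IFNGR1 was at -0.61 ± 0.26 beside a dye term of -1.38, with ratios of -2.76 and -1.23 on arrays 1 and 3 and of 0.78 and 0.75 on arrays 2 and 4. This was the lowest of its 4 probes, which ran up to -0.31. IFNGR2 stood at -0.20 ± 0.20. The ligand gene IFNG was above background in 0 Cy3 channels and was not tested.

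Co-stimulation was read from CD86, a ligand of T cell CD28. Its probe was above background in 3 treated and 4 untreated channels, so it was tested only through the untreated channel, where it was higher. It stood at -0.29, -0.64, -0.88 and -0.92 on the 4 arrays, with a fitted value of -0.68 ± 0.19 (limma's adjusted p = 0.999). CD40, the receptor by which T cells activate antigen-presenting cells, stood at -0.26 ± 0.18. The cytokine gene TGFB1 stood at -0.00 ± 0.19, and its other probe at 0.08. CD4, CD80 and IL10 had probes that were not tested, with at most 1 Cy3 channel above background.

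**Figure D4:**
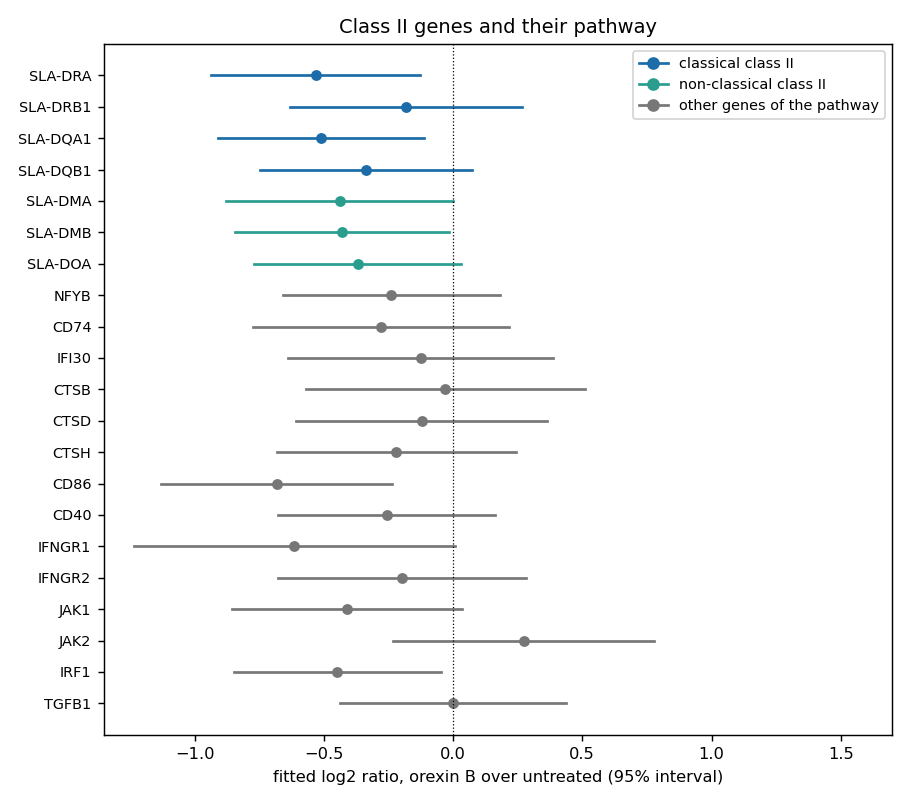
Fitted log2 ratio of orexin B over untreated explants (x axis) with its 95% interval for the 7 class II genes, classical in blue and non-classical in green, and for genes of the pathway list in grey. Each gene is shown by its brightest tested probe. By that probe the intervals of SLA-DRA, SLA-DQA1, SLA-DMB, CD86 and IRF1 lie below 0, and none of these genes passed adjustment over all probes. The interval lay below 0 for 2 of the 7 SLA-DRA probes and 1 of the 7 SLA-DQA1 probes. CD86 and JAK2 were tested only through the channel in which they were higher.

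Markers of cells that carry class II molecules were also measured. For comparison, 56.1% of the 1637 tested named genes had a fitted ratio below 0. Of the 5 tested macrophage and dendritic cell markers, 4 had a ratio below 0, namely LYZ (-0.68 ± 0.25), FCGR3A (-0.66 ± 0.23), AIF1 (-0.59 ± 0.26) and CD14 (-0.42 ± 0.20), while CD163 stood at 0.18 ± 0.22. LYZ, FCGR3A and AIF1 were lowest on array 4, at -1.59, -1.74 and -1.43. The LYZ probe was above background in 3 treated and 4 untreated channels, so it was tested only through the untreated channel, where it was higher, and it was the lowest of 3 probes, which ran up to -0.33. The log2 of the summed signal of these markers was 12.77 to 13.30 in treated explants and 13.03 to 14.35 in untreated explants. The dendritic cell markers CD1A (listed as CD1.1 in RefSeq) and CD1D and the myeloid markers SPI1 and MRC1 were above background in 0 Cy3 channels. The dendritic cell marker XCR1 was above background in at most 2. In Cy5 it was at most 4 channels for CD1A, MRC1 and XCR1, 3 for CD1D and 1 for SPI1. These 5 markers were not tested.

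The B cell markers CD79A and MS4A1 were above background in 0 Cy3 channels and were not tested. The 3 tested T and NK cell markers were all below 0 (median -0.27), with a log2 summed signal of 10.97 to 12.55 in treated explants and 10.89 to 13.20 in untreated explants. Of 7 tested epithelial markers 4 were below 0 (median -0.12), with a log2 summed signal of 15.67 to 16.66 in treated explants and 16.02 to 17.06 in untreated explants. Of 5 tested stromal and endothelial markers 3 were below 0 (median -0.07), with a log2 summed signal of 15.16 to 15.49 in treated explants and 14.98 to 15.76 in untreated explants. The epithelial and stromal counts were near the share of 56.1% over all tested named genes. The ratio was below 0 for 4, 7, 5 and 0 of the 7 epithelial markers on arrays 1 to 4. Among all tested named genes it was below 0 for 739 of 1635, 1009 of 1629, 880 of 1626 and 758 of 1625. The part of cell numbers in the class II ratios was not tested.

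The class II probes stayed below the median of all tested probes under most settings. Their median minus that of all tested probes was -0.37 with loess, -0.32 with median centring and -0.37 with the authors' value table. Leaving out array 2, by its header the array of the other slide and scan day, gave -0.35 with 25 of 25 probes below 0. Leaving out array 3 gave -0.28 with 24 of 26 below 0, and leaving out array 4 gave -0.34 with 24 of 26 below 0. Of all tested probes, 52.9%, 49.0% and 47.3% were below 0 without arrays 2, 3 and 4, in that order. Reading all arrays as treated in Cy5 turned the difference to 0.26.

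**Figure D5:**
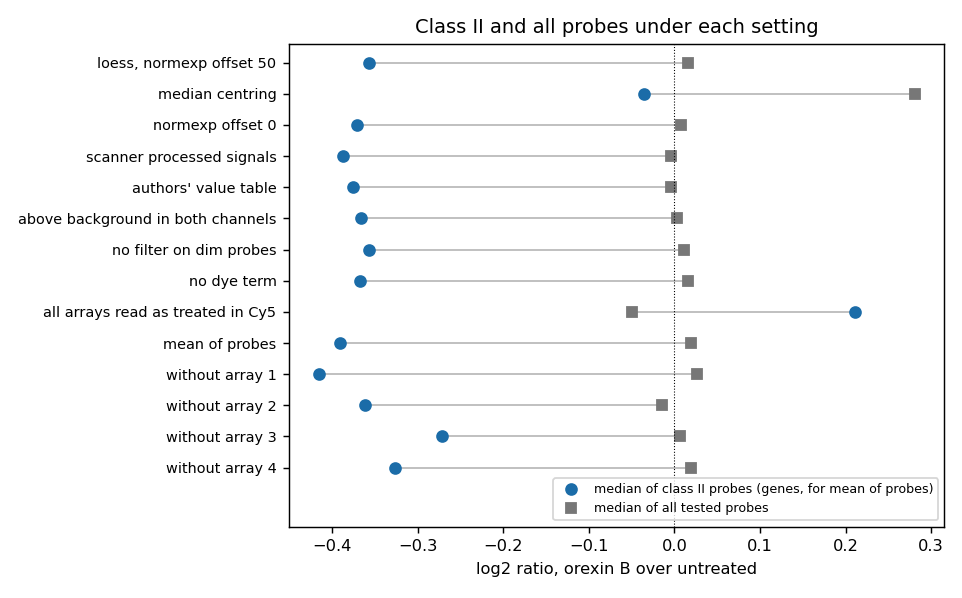
Median log2 ratio of orexin B over untreated explants (x axis) for class II probes (blue circles) and for all tested probes (grey squares) under each setting (rows). Class II probes lie to the left of all probes in every row except the one that reads all arrays as treated in Cy5, where their median is 0.21 against -0.05.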

How the data were processed

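RNA from treated and untreated explants was hybridised to 4 two-colour Agilent arrays. The deposited spot intensities of both channels, and log10 ratios (Cy5 over Cy3) already corrected by the scanner software, were written by Agilent Feature Extraction 10.7.3.1 for design 026440, per the file headers. The authors' value table holds treated over untreated log2 ratios, deposited without a statement of scale; they equal the log2 ratio of the scanner's processed signals (correlation of 1, or -1 on arrays 2 and 4, which the authors turned) and are not centred (column medians 0.18, 0.29, 0.01 and 0.03).

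Median spot and background signals were corrected by normexp (offset 50) and loess-normalised, giving no weight to control and outlier spots, in limma 3.58.1 and R 4.3.3. Outlier spots were dropped and spots of a probe averaged. Channel levels are from the same values after quantile normalisation of average intensity. Testing required a signal well above background for treated RNA on all 4 arrays, or for untreated RNA on all 4, and 13783 probes were tested. Another 2 were left out because outlier spots left a single dye orientation. A treatment and a dye term were fitted with limma's lmFit and eBayes (2 residual and 5.09 prior degrees of freedom), with two-sided p-values adjusted by Benjamini-Hochberg over all tested probes at 0.05. The number of arrays limits the precision. The fit was tested on simulated data.

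Probes were named through unversioned RefSeq accessions (assembly Sscrofa11.1). No build is given in the sources used here, so no coordinates are printed. A gene is shown by its brightest tested probe. Named genes are all class II genes, tested genes of the pathway and marker lists (some are not reported here), and the 5 genes with the nearest ratio profile. Members and lists were chosen with earlier results of these data known.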

Additional observations from a re-analysis of the deposited data

How the results depend on the processing

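No class II probe passed the adjusted threshold under any of the alternatives run. Of the recomputed values, 148 kept their direction and side of the threshold or moved by less than the spread between arrays. Another 12 moved further and 6 turned to the other side of 0. The other filters on dim probes and the fit without a dye term left the 7 gene ratios unchanged, which was fixed in advance. The scanner's processed signals and the authors' value table hold the same ratios, so they count as 1 alternative. With median centring, which moved all tested probes to a median of 0.28, SLA-DRB1 stood at 0.13 and SLA-DQB1 at 0.015, the median over the 7 genes was -0.14, 17 of 26 probes were below 0 and 0 had an unadjusted p under 0.05, against 7.84% of all tested probes. Under that setting 11.0% of all tested probes were below 0, against 46.9% with loess. With all arrays read as treated in Cy5, SLA-DRB1 stood at 0.20, SLA-DQB1 at 0.12, SLA-DMA at 0.22 and SLA-DMB at 0.12. The median over the 7 genes was then 0.12, the median of the pathway list 0.069, and 6 of 26 probes were below 0, against 55.5% of all tested probes. The number of class II probes at an unadjusted p under 0.05, which was 4 with loess, was 1 with the scanner's processed signals, 1 with the authors' value table, 2 without the dye term and 13 of 28 with no filter on dim probes. Over all probes the shares under these settings were 4.04%, 4.14%, 1.96% and 3.20%, in that order, against 3.60% with loess. It ranged from 0 to 4 when each array was left out in turn, with 1 without array 1 and 0 without array 3 (2.65% and 3.07% of all probes). Over the whole table, 17 probes passed without array 2 and 0 with all arrays, and no class II probe was among them. Leaving out each array gave -0.58 to -0.49 for SLA-DRA, -0.34 to -0.02 for SLA-DRB1, -0.41 to -0.26 for SLA-DQB1 and -0.58 to -0.30 for SLA-DMA. With each gene's probes averaged, SLA-DQA1 and the other 6 genes were below 0. The cause of these moves was not tested. The fit is paired by array, since each ratio sets treated against untreated RNA on the same array. No paired analysis was possible because beyond that no replicate number ties arrays to each other. A block for array 2, by its header the lone array of its slide and scan day, equals leaving it out.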

Other observations

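The other named genes whose ratios lay nearest to the mean profile of the 7 class II genes (-0.29, -0.35, -0.59 and -0.37 on arrays 1 to 4) were AMCF-II, a neutrophil-attracting chemokine, NCEH1, a cholesteryl ester hydrolase, CDH5, the cadherin of endothelial junctions, BTG1, an inhibitor of proliferation, and AK4, a mitochondrial adenylate kinase. Their Euclidean distances over the 4 arrays were 0.146 to 0.241 among 1597 genes compared, and their fitted ratios were -0.34 ± 0.17, -0.37 ± 0.17, -0.39 ± 0.17, -0.38 ± 0.17 and -0.29 ± 0.18. NCEH1 was above background in 3 treated and 4 untreated channels, so it was tested only through the untreated channel, where it was higher. The class II genes themselves lay 0.333 (SLA-DMB) to 0.915 (SLA-DQA1) from that mean. The 5 genes were picked as the nearest of 1597 and the class II genes were not picked by distance. That these 5 genes lie closer is therefore not a result about the class II genes. This is a description over 4 arrays.

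The untested SLA-DQB1 probe had ratios of 0.85, -1.91, 0.56 and -0.65 on arrays 1 to 4, above 0 where treated RNA was in Cy5 and below 0 where it was in Cy3. The untested SLA-DMB probe stood at 0.51, -1.60, -0.60 and 0.02. Both were dim in Cy3, so their ratios were not read as a difference.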
